A study of Mus musculus with 52 samples.

Results

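The regions described here are stretches of open chromatin that the vascular endothelial cells (ECs) of both pituitary lobes shared and that the ECs of the cerebellum lacked. A region was taken when peaks from all 4 wild type (WT) pituitary ATAC-seq libraries overlapped by at least 1 bp and no peak of either WT cerebellum library touched the merged interval. Peaks counted if both their fold enrichment and their -log10 q exceeded 2. The rule gave 1223 regions of the 54948 in the 6 WT libraries (66740 over all 12 ATAC-seq libraries), and they are called the pituitary regions below. The regions were thus chosen by WT peak calls, so their WT values are given as a description and were not tested.

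The study asked how beta-catenin signaling divides barrier from non-barrier capillaries. It holds 52 samples in 26 groups of 2, of which 12 are ATAC-seq libraries of GFP-positive cells from cerebellum, anterior pituitary and posterior pituitary, and 24 are RNA-seq libraries from the same tissues, made from GFP-positive or from GFP-negative cells. The remaining RNA-seq libraries are of cortex and choroid plexus of RiboTag mice, in which an epitope-tagged ribosomal protein marks RNA bound to EC ribosomes. Of these, 8 hold the bound RNA, and the others hold input RNA from before the pull-down and were not used here. WT mice carried Tie2-GFP, a reporter driven by an endothelial promoter, and stabilized mice carried Tie2-GFP, Pdgfb-CreER and BcatEx3fl. The last allele loses an exon of the beta-catenin gene after recombination, so that the protein escapes degradation, and Pdgfb drives the recombinase in ECs. All mice were adult males. The stabilized animals of the sorted groups received 100 µg of 4HT at P10, and pituitaries of 20 to 30 mice aged P30 to P90 were pooled for each replicate. The WT sorted groups lacked both the recombinase and the drug, so neither can be told apart from stabilization. RiboTag WT mice carried RiboTag and Pdgfb-CreER, and the paper describes RiboTag mice of both genotypes as having been given 4HT some weeks before.

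Capillaries of the pituitary are fenestrated: their ECs are pierced by pores, spanned by a diaphragm, through which hormones and plasma solutes pass. Capillaries of the cerebellum form the blood-brain barrier (BBB), in which Wnt ligands keep beta-catenin and its TCF/LEF partners active and transporters and tight junctions replace the pores. ATAC-seq reads where the Tn5 transposase can cut, which marks promoters and enhancers, and the fold enrichment of a peak compares its pileup with the background around it.

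The sequences of 7 of these regions are shown first, as the forward strand of RefSeq's GRCm38.p6 genome, 5′ to 3′, within 100 bp of the highest WT summit. The first 4 lie at genes of fenestrated or lipid-handling capillaries and the last 3 are among the 10 strongest pituitary regions. Capitals mark the ETS letters AGGAAG and the AP-1 letters TGAGTCA on either strand, 2 of the 32 motif kinds searched, whose shares are compared with other open regions below. Plvap promoter is chr8:71511753-71511916, cut short to leave out transcribed bases, Exoc3l2 intron is chr7:19472444-19472644, and Gpihbp1 upstream is chr15:75593010-75593210. Kdr exon is chr5:75956052-75956252, Nrn1 downstream, in an intron of Fars2, is chr13:36695970-36696170, Cdh6 upstream is chr15:13244389-13244589, and P3h2 intron is chr16:26065131-26065331.
Plvap promoter: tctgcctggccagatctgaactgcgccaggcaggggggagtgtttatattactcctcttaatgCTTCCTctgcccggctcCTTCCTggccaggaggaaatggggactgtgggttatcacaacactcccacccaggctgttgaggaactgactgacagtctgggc
Exoc3l2 intron: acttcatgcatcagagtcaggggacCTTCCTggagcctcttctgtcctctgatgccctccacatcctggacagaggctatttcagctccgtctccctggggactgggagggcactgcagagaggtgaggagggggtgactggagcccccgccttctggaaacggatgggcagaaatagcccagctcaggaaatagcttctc
Gpihbp1 upstream: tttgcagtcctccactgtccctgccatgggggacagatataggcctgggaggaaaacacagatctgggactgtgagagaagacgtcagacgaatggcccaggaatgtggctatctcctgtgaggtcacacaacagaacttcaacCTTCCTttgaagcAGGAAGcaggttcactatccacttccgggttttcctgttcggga
Kdr exon: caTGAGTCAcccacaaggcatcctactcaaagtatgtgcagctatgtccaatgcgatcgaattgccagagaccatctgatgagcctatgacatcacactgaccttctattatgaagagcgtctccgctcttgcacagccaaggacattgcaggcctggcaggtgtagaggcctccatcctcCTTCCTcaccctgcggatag
Nrn1 downstream: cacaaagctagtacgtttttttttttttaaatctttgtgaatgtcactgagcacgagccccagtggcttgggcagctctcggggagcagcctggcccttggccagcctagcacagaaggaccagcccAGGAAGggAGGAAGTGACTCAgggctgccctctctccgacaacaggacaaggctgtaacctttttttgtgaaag
Cdh6 upstream: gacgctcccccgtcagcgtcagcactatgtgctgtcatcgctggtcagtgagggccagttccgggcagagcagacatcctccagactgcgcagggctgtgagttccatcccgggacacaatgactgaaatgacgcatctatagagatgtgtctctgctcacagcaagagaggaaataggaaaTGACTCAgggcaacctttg
P3h2 intron: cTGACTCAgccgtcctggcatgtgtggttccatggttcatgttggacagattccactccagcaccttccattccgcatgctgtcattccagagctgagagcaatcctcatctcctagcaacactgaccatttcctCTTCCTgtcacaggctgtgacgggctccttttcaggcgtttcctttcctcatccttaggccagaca

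Most pituitary regions lay away from promoters, about as often as other open regions did. Of the 1223, 279 had the middle of the overlap within 1 kb of a protein-coding start (22.8%, Wilson 95% interval 20.6 to 25.2%), 442 lay in introns (36.1%), 435 were intergenic (35.6%), 30 lay in coding exons, 19 in UTRs and 18 in other exons. Regions open in all 6 WT libraries, of which there were 13990, were promoters in 68.7%, the 2202 regions of WT cerebellum alone in 5.13%, and all other 53725 WT regions together in 26.3%. The median distance to the nearest start was 14466 bp, against 113 bp for regions of all 6 WT libraries 26576 bp for those of cerebellum alone and 13226 bp for all other WT regions. The median pituitary region spanned 786 bp, of which the 4 libraries shared 271 bp at the median. Intervals and shares here cover counting error only, since regions share libraries.

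Depth of the peak lists limits who could be a member. The 2 WT posterior lists were the shortest, with 21050 and 20634 kept peaks, against 26394 and 24020 in WT cerebellum and 36860 and 45040 in the WT anterior lobe. Leaving out WT posterior replicate 2 gave 1927 regions, and leaving out any other WT library gave between 1264 and 1776. A minimum of 200 bp shared by the 4 libraries gave 994. With limits of 4 for fold enrichment and 5 for -log10 q in every library, cerebellum included, the rule gave 907 regions, of which 537 overlapped one of the 1223 and 370 did not, since cerebellum peaks under those limits no longer removed a region. At the edge of the rule, the weakest region by fold enrichment, in an intron of Nrp2, had 2.02 in its lowest library, and the weakest by -log10 q, at the promoter of Adcy6, had 2.01. A further 83 regions with a deposited peak in all 4 WT pituitary libraries failed the filter, 33 of them on fold enrichment and 50 on q alone. Cerebellum was not always empty: 38 of the 1223 regions (3.11%) overlapped a deposited WT cerebellum peak under the filter.

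The sorted cells showed open EC promoters. All 12 general EC genes listed, such as Cdh5 and Pecam1, had a promoter peak in each of the 12 libraries, and none of Gh, Prl, Pomc, Tshb, Lhb, Fshb, Cga, Pou1f1, Pitx1, Chga and Ghrhr had a peak within 1 kb of its start in any of them. Other listed endocrine markers did have one, Lhx4 and Nr5a1 in some libraries and Lhx3 in 1. Of 10 mural cell markers, 3 and 4 had a promoter peak in the WT anterior libraries and 1 and 2 in the WT posterior libraries (Myh11 in all 4, Kcnj8 and Abcc9 in some), against 0 and 0 in WT cerebellum, and their part in the pituitary regions was not tested. Mural RNA went the other way: of 9 of these markers tested, 4 were lower than in cerebellum in the anterior and 4 in the posterior lobe (median log2 fold change -4.15 and -2.62), and 1 and 0 were higher. Endocrine RNA was present as well. The summed TPM of 16 endocrine markers was 6895 and 4422 in WT anterior GFP-positive RNA, 3384 and 479.5 in posterior and 36.5 and 33.1 in cerebellum.

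In the WT libraries the pituitary regions stood higher in the anterior lobe than in the posterior. Median fold enrichment was 7.36 and 9.71 in the anterior replicates and 4.32 and 4.27 in the posterior replicates. Regions of all 6 WT libraries stood in the same order, with 11.71 and 13.35 in the anterior and 7.772 and 7.655 in the posterior replicates, so the gap was not particular to the pituitary regions. The anterior lists were also the longest, and the part of library quality in this gap was not tested. The strongest region by its lowest library was an intronic stretch of Fars2, a mitochondrial tRNA synthetase gene, 34439 bp from the start of Nrn1, with 11.4 and 13.4 in the anterior lobe and 10.7 and 11.6 in the posterior. Cdh6, a cadherin gene, had one 70897 bp upstream with 13.6 and 18.1 in the anterior lobe and 10.4 and 10.5 in the posterior. P3h2, a collagen prolyl hydroxylase gene, had one in an intron with 16.9 and 18.8 in the anterior lobe and 9.81 and 9.93 in the posterior. The other 7 were intronic in Csgalnact1 and Agpat4, far upstream of Ift57 and Gli2, and at the promoters of B4galt6, Elf4 and Rasgrf2. Each of the 7 non-promoter regions among these 10 held the AP-1 letters and 6 of them also the ETS letters, while none of the 3 promoters held either. Strong chromatin did not go with RNA at every such gene: none of Nrn1, Cdh6, P3h2 and Agpat4 passed the test in either lobe against cerebellum, whereas Elf4, itself an ETS factor with 5 linked regions, was higher in both lobes (log2 fold change 6.18 ± 0.85 SE, adjusted p = 0.000856 in the anterior lobe, and 6.64 ± 0.87, adjusted p = 0.000723 in the posterior, edgeR).

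Most regions still had a peak in the pituitary when beta-catenin was stabilized. Recombination was incomplete, and the paper warns that reads from unrecombined ECs could mask a loss of open chromatin. A kept peak therefore need not come from stabilized ECs, and the part of unrecombined cells in these peaks was not tested. Both stabilized anterior libraries had a peak at 1177 of 1223 (96.2%, 95% interval 95.02 to 97.17%), and both stabilized posterior libraries at 1073 (87.7%, 85.8 to 89.5%). Regions of all 6 WT libraries, by the same count, kept 98.2% in the stabilized anterior lobe and 98.2% in the posterior. These are mostly promoters. Over 1 kb from a start, the pituitary regions kept 95.8% in the anterior lobe, where regions of all 6 WT libraries kept 94.5%, and 89.2% in the posterior, where the latter kept 94.9%. Only 11 regions had no peak in any of the 4 stabilized pituitary libraries. Among regions that still had a peak, median fold enrichment was 8.91 and 10.4 in the stabilized anterior lobe and 5.75 and 5.62 in the stabilized posterior lobe. In the regions of all 6 WT libraries the posterior medians likewise went from 7.77 and 7.66 to 10.9 and 10.4. With 2 libraries in each group these differences were not tested, and the stabilized lists were longer than the WT ones in the posterior lobe (28926 and 38583 kept peaks).

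How high a region stood went with whether it was found again. In the posterior lobe, 75.2% of the 145 regions whose lowest WT fold enrichment was 2 to 3 had a peak in both stabilized libraries, against 82.3% of the 547 at 3 to 4, 96.5% of the 423 at 4 to 6 and 98.2% of the 108 over 6. Regions of all 6 WT libraries rose over bins of the same limits from 86.4% through 94.2% and 98.9% to 99.7%. Their lowest value was taken over all 6 libraries, cerebellum included, so the bins are not matched for height in the pituitary. In each posterior bin the pituitary regions were below these. In the anterior lobe they were at 88.3%, 95.4%, 99.3% and 99.1%, and the regions of all 6 WT libraries at 84.3%, 95.3%, 98.7% and 99.8%, so that only the highest bin was lower.

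Regions that went missing were few and could be named. No peak was found in either stabilized posterior library at 42 regions (3.43%). The strongest of them lay in an intron of Ptprn2, a secretory granule phosphatase gene, with 5.89 and 6.83 in WT posterior, 11.5 and 10.5 in WT anterior and 7.56 and 10.1 in stabilized anterior ECs. The promoters of Zdbf2 and Il17d, a cytokine gene, were lost there too and kept in the stabilized anterior lobe. Both stabilized anterior libraries lacked 23 regions (1.88%), the strongest of them an intron of Alpl, the gene of tissue-nonspecific alkaline phosphatase, with 5.69 and 5.71 in WT anterior ECs and 3.957 and 3.004 in the stabilized posterior lobe.

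Stabilized cerebellum ECs had peaks at a minority of the regions. Both stabilized cerebellum libraries had a peak at 287 of 1223 (23.5%, 21.2 to 25.9%), and the replicates alone at 402 (32.9%) and 327 (26.7%). These peaks were low, with medians of 3.82 and 3.78. The stabilized cerebellum lists were longer than the WT ones, with 33514 and 31669 kept peaks, and the rule required the WT lists to be empty here, so part of any gain is fixed by the choice of regions. The share rose to 33.6% when WT cerebellum replicate 1 was left out and to 35.5% without replicate 2, which lets in regions with a peak in the library left out. Promoters among the pituitary regions were open in stabilized cerebellum at 91 of 279 (32.6%, 27.4 to 38.3%) and distal regions at 196 of 944 (20.8%, 18.3 to 23.5%). Of the 10 highest, 8 were promoters, among them Ifit1bl2, an interferon-induced gene, with 10.4 and 8.77, and Casp12, a caspase gene, with 8.90 and 8.54. Counted over all tissues, 656 regions (53.6%) were open in both libraries of both stabilized lobes and in neither stabilized cerebellum library, and 266 (21.8%) were open in all 6 stabilized libraries.

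**Figure D1:**
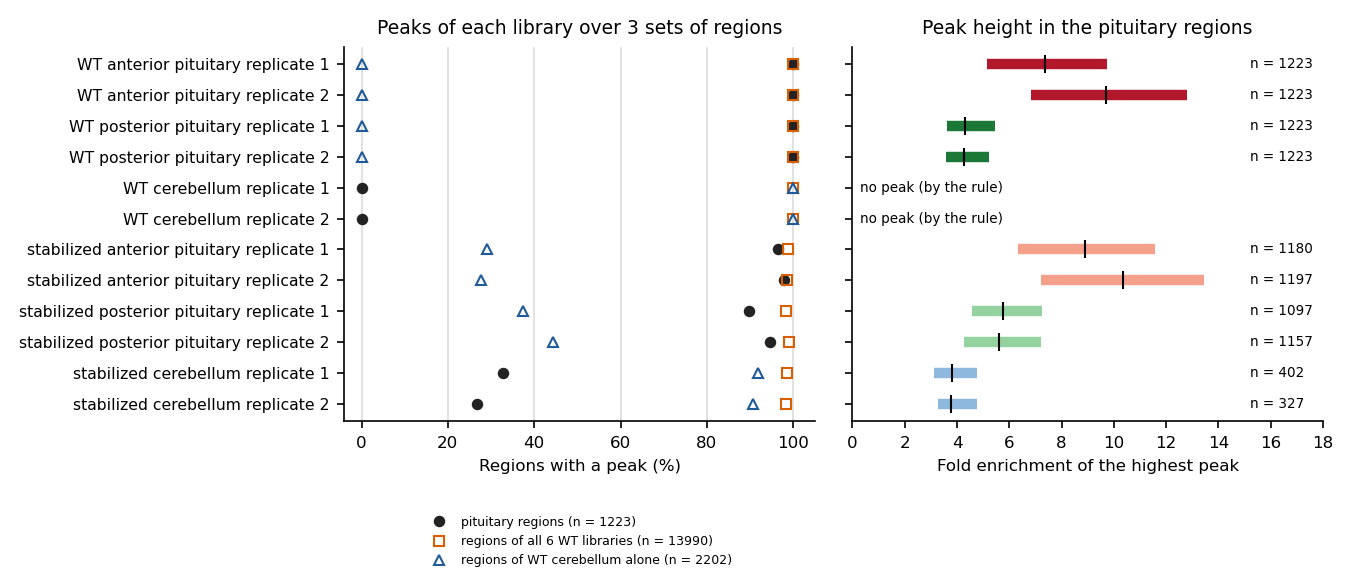
Left, the share of regions (percent) with a kept peak in each of the 12 ATAC-seq libraries, for the 1223 pituitary regions (filled circles), the 13990 regions of all 6 WT libraries (open squares) and the 2202 regions of WT cerebellum alone (open triangles). WT values of each set are fixed by its definition, and at right is the fold enrichment of the highest peak in the pituitary regions that had one (bars: lower to upper quartile, ticks: median), where the pituitary regions stay above 89% in the stabilized pituitary libraries and are at 26.7 and 32.9% in stabilized cerebellum.

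Several fenestrated capillary genes had a region nearby. Of 18 genes listed as typical of fenestrated and permeable capillaries, 9 had a pituitary region within 100 kb of the gene body and 7 were the nearest gene to one (linked genes). Over all 21951 protein-coding genes 15.04% had one within 100 kb and 4.23% were linked, and of 12 general EC genes 8 had one within 100 kb and 4 were linked, so nearness was not particular to the fenestrated list. At the promoter of Plvap, the gene of the fenestral diaphragm protein, a region 101 bp before the start had a fold enrichment of 7.99 and 9.59 in WT anterior, 3.92 and 4.38 in WT posterior, 6.48 and 9.59 in stabilized anterior and 7.10 and 7.14 in stabilized posterior ECs. Neither stabilized cerebellum library had a peak there. It holds the ETS letters at 2 places near its summit, as printed above. Gpihbp1, whose product anchors lipoprotein lipase to capillaries, had a region 3420 bp upstream with 8.22 and 12.9 in the WT anterior and 4.19 and 5.16 in the WT posterior lobe, and stabilized cerebellum replicate 1 showed a peak of 3.71 there. Kdr, the main VEGF receptor gene, had one over a coding exon 22297 bp into the gene, with 6.876 and 13.69 in WT anterior and 3.71 and 5.31 in WT posterior ECs. Both regions still had peaks in the stabilized pituitary, Kdr with 4.99 and 4.05 in the posterior lobe. Flt1, another VEGF receptor gene, differed: its region 32312 bp upstream was open in stabilized cerebellum at 6.63 and 7.13. Nrp2 had 2 regions, and Ehd3, Flt4 and Vwf each had one within reach.

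Exoc3l2, an exocyst-like gene of ECs, carried the densest group at a listed gene, with 6 regions in and around a body of 33431 bp and 5 of them linked to it. Their middles lay 275 bp before the start and 3608, 9268, 14877, 32745 and 38548 bp after it. The highest of these in the posterior lobe, at 9268 bp, had 7.47 and 9.75 in WT anterior, 4.69 and 6.38 in WT posterior, 9.62 and 11.1 in stabilized anterior and 10.9 and 7.82 in stabilized posterior ECs. All 6 were open in each of the 4 stabilized pituitary libraries, and none had a peak in stabilized cerebellum. Peaks common to all libraries flanked the group at the neighbouring starts of Mark4 and Bloc1s3. As many or more regions within 100 kb were counted at Cemip2 (7), a hyaluronidase gene, Arhgap26 (7) and Fgf1 (6), and 5 at the neighbours Col4a1 and Col4a2, which encode basement membrane collagen.

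**Figure D2:**
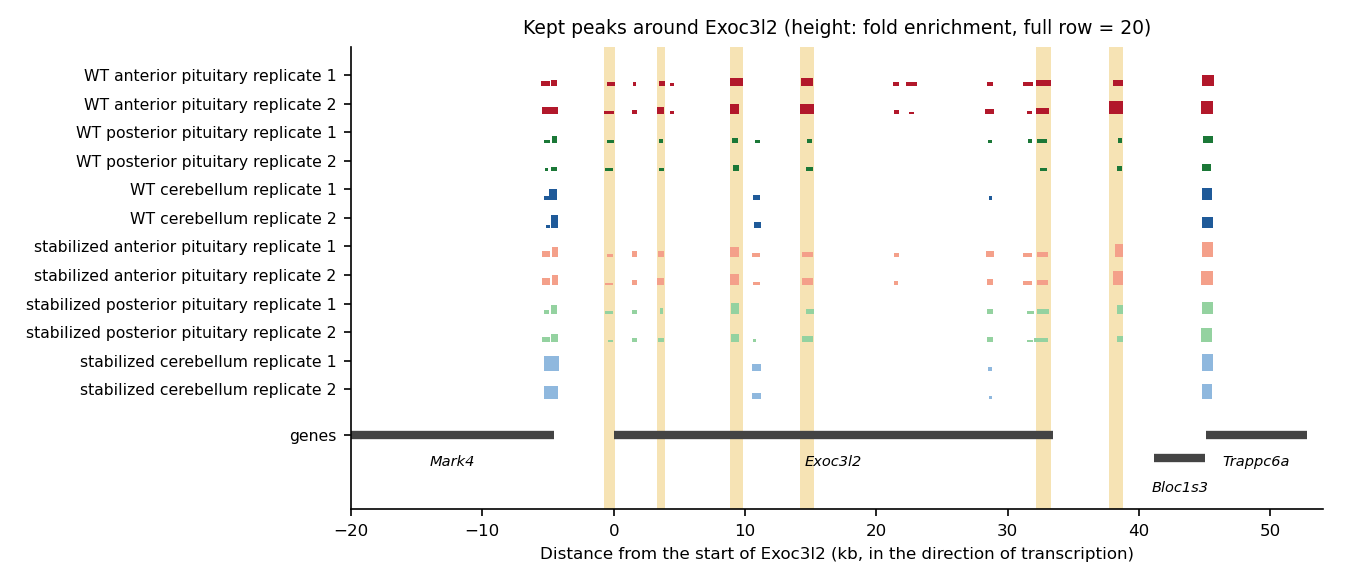
Kept ATAC-seq peaks around Exoc3l2 in the 12 libraries, one row each, by distance in kb from its start in the direction of transcription; bar height is the fold enrichment, on a scale where a full row is 20. Shaded bands are the 6 pituitary regions, which hold peaks in all 8 pituitary rows and in none of the 4 cerebellum rows.

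RNA of the genes nearest to the regions was measured in the sorted ECs. A region was linked to the protein-coding gene with the nearest start if that start was within 100 kb; 1075 of 1223 regions (87.9%) were linked, to 928 genes, 111 of which had 2 or more regions, and 841 genes had enough reads to test. The GFP-positive libraries held 17260078 to 33458597 estimated counts each, with a median of 26531515. A gene was called at an edgeR quasi-likelihood adjusted p under 0.05 over all genes and a fold change of at least 2. In bulk samples, fewer cells of a type and less RNA per cell cannot be told apart. The study's methods describe the pituitary pools as independent replicates, and with 2 per group the p-values rest on few samples.

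Linked genes were higher in pituitary ECs far more often than other genes were. In the anterior lobe 123 of 841 (14.6%) were higher than in cerebellum, where 2.65% of all 14576 protein-coding genes tested were, and 26 (3.09%) were lower, against 3.64% of all. In the posterior lobe 138 (16.4%) were higher, against 2.5% of all, and 15 (1.78%) lower, against 2.78%. Neither count of lower genes was stable: DESeq2 called 43 in the anterior and 35 in the posterior lobe, and in the posterior lobe 33 were lower without WT posterior replicate 1 and 30 when genes of low count were kept. The median log2 fold change of linked genes was 0.55 and 0.57, against 0 over all genes. Genes with 2 or more regions were higher in 31.8% and 35.5% of 110 cases. Genes with a promoter region were higher in 50 of 260 (19.2%) in the anterior and 53 (20.4%) in the posterior lobe, and those with a region over 1 kb away in 94 of 622 (15.1%) and 107 (17.2%). Genes linked to regions of WT cerebellum alone and to no pituitary region showed the reverse, with 25.7% lower in the anterior and 19.9% lower in the posterior lobe. The anterior and posterior comparisons share the WT cerebellum libraries, so their counts are set side by side and are not independent.

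Across both lobes, 104 linked genes (12.4%) were higher in each, against 244 of 14576 (1.67%) over all genes, 11 (1.31%, against 1.97%) were lower in each, and no linked gene was called in opposite directions, as 5 of all genes were. Of the 104, 59 were also higher in GFP-positive than in GFP-negative cells of both lobes, a share close to the 133 of 244 over all genes, and 2 were lower there in either lobe. For all linked genes, the GFP-positive side was higher in 211 of 873 in the anterior lobe (24.2%, against 6.96% of all genes) and in 234 in the posterior (26.8%, against 9.0%). The RiboTag libraries gave a comparison with other capillaries, since choroid plexus capillaries are fenestrated and cortical ones are not. There 156 of 814 linked genes (19.2%) were higher in choroid plexus, against 13.5% of all genes, and 178 (21.9%) lower, against 17.6%, so that linked genes exceeded the background in both directions. Of the 104 genes higher in both lobes, 36 were also higher in choroid plexus, a share close to the 80 of 244 over all genes.

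**Figure D3:**
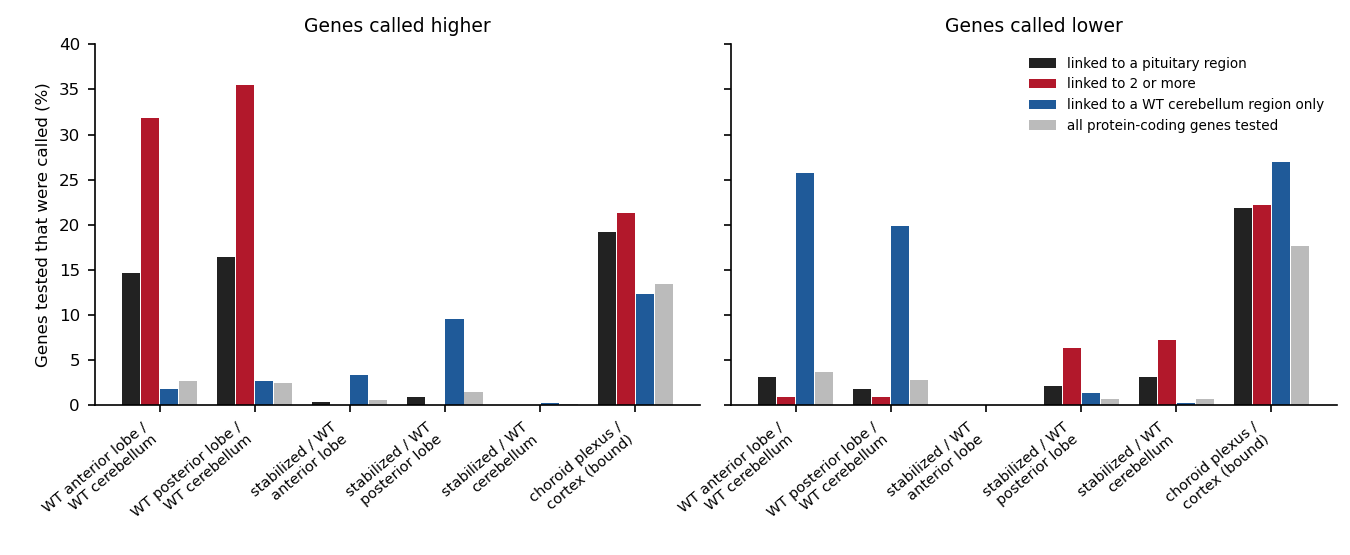
Percent of tested genes called higher (left) or lower (right) in 6 comparisons, for genes linked to a pituitary region (black), to 2 or more (red), to a region of WT cerebellum alone (blue) and all protein-coding genes tested (grey). Black and red bars stand above grey for higher RNA in both WT lobes over WT cerebellum, at 14.6% and 16.4% against 2.65% and 2.5%.

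The genes with the largest rise in both lobes included the diaphragm gene and others of vessel wall and lipid handling. Plvap had 845.1 and 1028 TPM in WT anterior, 1160 and 1112 in WT posterior and 0 and 10.7 in WT cerebellum ECs (log2 fold change 7.43 ± 1.85 SE, adjusted p = 0.0342, and 7.37 ± 1.84, adjusted p = 0.0399). The groups did not overlap, and 1 of the cerebellum libraries was listed at 0. In bound RNA Plvap stood at 84.2 and 123.5 TPM in choroid plexus and 1.54 and 3.93 in cortex (7.20 ± 0.93, adjusted p = 0.000465). Exoc3l2 had 191.9 and 457.8 TPM in the anterior lobe, 445.5 and 222 in the posterior and 0.664 and 0.779 in cerebellum (8.27 ± 0.51, adjusted p = 2.77e-06, and 8.03 ± 0.51, adjusted p = 6.5e-06). It was among the tightest of the large differences. Gpihbp1 had 92.2 and 122.4 TPM in the anterior, 417.1 and 280.2 in the posterior and 0 and 1.21 in cerebellum ECs (6.58 ± 1.11, adjusted p = 0.00277, and 8.03 ± 1.17, adjusted p = 0.0012). In bound RNA it was listed at 0 in both cortex libraries and stood at 50.4 and 50.6 TPM in choroid plexus.

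Meis2, a homeobox factor gene with a region at its promoter, showed the largest fitted rise, with 620.8 and 1144 TPM in the anterior lobe, 123.8 and 140.9 in the posterior and 0 and 0.0058 in cerebellum. The same gene stood at 92.9 and 101.2 TPM in cortex bound RNA and was lower in choroid plexus (-2.78 ± 0.71, adjusted p = 0.0156). Cortex bound RNA also held neural RNA: Mbp, a myelin gene, was at 352.1 and 471.1 TPM there, and 9 of 9 neuron and glia markers tested were lower in choroid plexus. Their part in the cortex level of Meis2 was not tested. Fam167b had 456 and 524 TPM in the anterior and 576.1 and 296.1 in the posterior lobe, against 0 and 1.98 in cerebellum. Collagen genes were among them: Col13a1, a transmembrane collagen with 2 linked regions, had 165.3 and 202.8 TPM in the anterior, 211.3 and 146.2 in the posterior and 0 and 1.67 in cerebellum ECs, and Col15a1, a basement membrane collagen, rose with it. Ptgs1, the gene of cyclooxygenase 1, had 65.1 and 71.8 TPM in the anterior lobe and 187.9 and 85.0 in the posterior, against 0.649 and 0.890 in cerebellum. In bound RNA it went the other way, with 58.7 and 40.7 TPM in cortex and 2.60 and 5.42 in choroid plexus (-2.09 ± 0.36, adjusted p = 0.00221, edgeR). Plpp1, a lipid phosphate phosphatase gene, had 1425 and 1719 TPM in the anterior and 2864 and 840.6 in the posterior lobe, against 14.54 and 22.89 in cerebellum. Ednrb, the endothelin B receptor gene, with 3 linked regions, had 96.9 and 137.5 TPM in the anterior and 362.9 and 155.6 in the posterior lobe, against 3.30 and 1.54. Ntf3, Lrrc3b and Btnl9 complete the 15, together with the class II antigen presentation genes H2-Aa and H2-Ab1. Most of the 15 were called higher in choroid plexus than in cortex bound RNA, and only Meis2 and Ptgs1 were called lower.

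Other genes had a pituitary region and yet the opposite RNA, and the 5 with the largest fall in both lobes are given. Slc16a1, the monocarboxylate transporter gene of barrier ECs, had 164.6 and 308.7 TPM in cerebellum and 7.86 and 13.6 in the anterior lobe (-4.51 ± 0.61, adjusted p = 0.000526) and 3.67 and 10.6 in the posterior. Elovl7, a fatty acid elongase gene, had 22.5 and 23.8 TPM in cerebellum, was listed at 0 in both anterior libraries and had 0.318 and 0 in the posterior lobe. Mecom, a transcription factor gene with a region at a promoter, had 59.2 and 37.5 TPM in cerebellum and 4.13 and 2.52 in the anterior lobe (-3.996 ± 0.4045, adjusted p = 5.35e-05). Mbp and Efr3b were the other two.

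Receptor genes of the VEGF family moved less and not alike. Kdr had 347.3 and 372.2 TPM in the anterior lobe, 554.6 and 535.7 in the posterior and 148.1 and 202.7 in cerebellum, a difference that passed in the posterior lobe (1.29 ± 0.32, adjusted p = 0.0367) and missed in the anterior (0.96 ± 0.32, adjusted p = 0.129). Nrp2, a VEGF co-receptor gene, rose in both (2.21 ± 0.26, adjusted p = 0.000168, and 1.66 ± 0.26, adjusted p = 0.00182). Flt1 was lower in the anterior lobe, at 209.7 and 232.4 TPM against 1003 and 507 in cerebellum (-2.22 ± 0.31, adjusted p = 0.000637), and Ehd3, a membrane trafficking gene, was higher there (2.76 ± 0.55, adjusted p = 0.00907). Over the list of 18 fenestrated genes, 9 were higher and 3 lower in the anterior lobe and 11 higher and 1 lower in the posterior, and 10 were higher in choroid plexus. Among 10 lipid uptake genes, of which 4 had a region near, 4 were higher and 2 lower in the anterior lobe and 5 were higher in the posterior; Scarb1, a lipoprotein receptor gene with a region in an intron, rose in both (2.27 ± 0.27, adjusted p = 0.000212, and 2.05 ± 0.27, adjusted p = 0.000599). Of 9 caveolae genes 2 were higher and 1 lower in the anterior lobe (median log2 fold change -0.12) and 3 were higher in the posterior (0.59). Cavin3 rose in both (2.61 ± 0.27, adjusted p = 7.27e-05, and 1.92 ± 0.27, adjusted p = 0.000812), as did Ehd4.

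Of 15 BBB transporter and junction genes 2 had a pituitary region within 100 kb and none was linked to one, near the 15.04% and 4.23% of all genes, while 13 of them were lower in the anterior and 14 in the posterior lobe. Of 22 endothelial ETS and partner factor genes 8 had one, all linked. Of 20 tested, 4 were higher and 2 lower in the anterior lobe and 4 higher and 1 lower in the posterior. The ETS genes Fli1 and Ets1 each had a region nearby and differed in neither lobe by the test: Ets1 stood at 156.1 and 223.5 TPM in the anterior, 262.1 and 124.3 in the posterior and 165.5 and 166 in cerebellum ECs. Of 16 endocrine markers 3 had a region within 100 kb and none was linked.

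**Figure D4:**
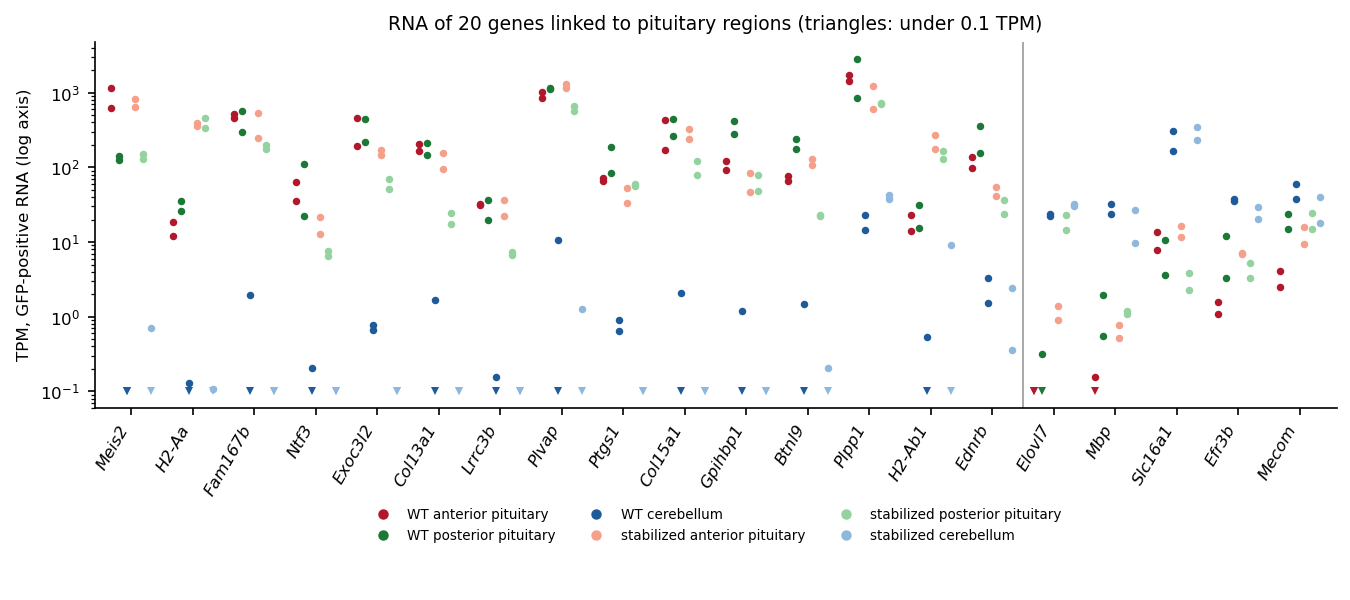
TPM in the 12 GFP-positive RNA libraries (log axis, 2 points per group, values under 0.1 drawn as triangles at 0.1) for the 15 linked genes with the largest rise in both lobes and, right of the line, the 5 with the largest fall. Both WT lobes (dark red, dark green) lie above both cerebellum groups (blues) for the first 15 genes; Plvap stays at 575.9 TPM or more in every stabilized pituitary library.

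Few linked genes were called in the stabilized anterior lobe by edgeR. There 3 of 841 were higher than in WT, a share below the 0.535% of all genes that were (78 genes), namely H2-Aa, Mpeg1 and Elovl7, and none was lower by edgeR, where 0.0137% of all genes were (19 linked genes had an unadjusted p under 0.05, and DESeq2 called 5). DESeq2 called 10 higher and edgeR without a filter on low counts 14. Leaving out a library gave 5 to 9 higher genes, with 6 when the stabilized anterior replicate 2 was left out, the library whose tissue label names the posterior lobe and whose title names the anterior. Plvap stayed at 1326 and 1145 TPM. H2-Aa rose to 397.7 and 354.5 TPM from 18.8 and 12.2 (4.62 ± 0.51, adjusted p = 0.000862). The summed TPM of 10 macrophage markers went from 27.23 and 24.02 to 110.5 and 152.7, with 9 and 10 of the 10 at 1 TPM or more, and their part in the rise of H2-Aa and of Mpeg1, itself a macrophage gene, was not tested.

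In the stabilized posterior lobe more linked genes were called lower than higher, an order that depended on how genes were linked and on 1 library. There 8 of 841 (0.951%) were higher, against 1.48% of all genes, and 18 (2.14%) were lower, against 0.652%. With all genes whose bodies lay within 100 kb the order turned, with 34 higher (1.28%) and 30 lower (1.13%) of 2660, and it turned without stabilized posterior replicate 1, with 6 higher and 4 lower. H2-Aa and Mpeg1 were among the 8, and the summed TPM of macrophage markers went from 11.0 and 1.38 to 155.1 and 114.5, with 2 of 10 called higher, and their part was not tested. Of the 18, 14 were higher in WT posterior ECs than in cerebellum, and 7 had 2 or more linked regions. Among all 95 genes called lower, the 18 included, 28 were higher in WT posterior ECs. These contrasts share the WT posterior libraries, so the counts are not independent. TPM and the fitted changes are on different scales here: over 8068 genes with at least 1 TPM in each of the 4 libraries the median log2 ratio of TPM was -1.002, and the median difference from the fitted change was -0.91, the fitted change being relative to edgeR's TMM scaling. Falls in TPM below are therefore larger than the fitted ones. Podxl, a sialomucin gene of the EC surface, fell from 864 and 740.7 to 85.5 and 112.4 TPM (-1.78 ± 0.27, adjusted p = 0.00514). Plpp3, a lipid phosphate phosphatase gene with 4 linked regions, fell from 720.9 and 382.9 to 78.3 and 87.6 TPM (-1.85 ± 0.36, adjusted p = 0.0243), and Col4a1, with 5, from 1691 and 4832 to 274.2 and 310.9 (-2.25 ± 0.45, adjusted p = 0.028). Kdr fell from 554.6 and 535.7 to 76.1 and 88.8 TPM (-1.89 ± 0.32, adjusted p = 0.0118). All 4 had non-overlapping groups, and the adhesion and signaling genes Mcam, Efnb2, Piezo2, Spry4 and Itpkb were also called lower. General EC genes fell in summed TPM too, from 7268 and 5495 to 2197 and 1939 over 12 genes (Kdr among them), of which 2 were called lower, and their part in these falls was not tested. Both counts were fragile. The higher genes were 25 without WT posterior replicate 1 (2.93%, against 4.74% of all genes), 27 by DESeq2 (3.21%, against 4.92%) and 27 when genes of low count were kept (3.06%, against 3.19%). The lower genes were 58 by DESeq2, and their count moved both ways when 1 library was left out. No share of all genes stands beside these counts, so they show only that the count moved.

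Plvap had 575.9 and 659.9 TPM in the stabilized posterior lobe (-0.37 ± 1.39, adjusted p = 0.973), Exoc3l2 52.1 and 69.1 (-1.14 ± 0.38, adjusted p = 0.192) and Gpihbp1 80.1 and 48.0 (-1.51 ± 0.87, adjusted p = 0.47). The TPM values of the stabilized replicates lay below both WT replicates for each of the 3 genes, but none passed the test. The paper warns that RNA of unrecombined ECs could partly hide such falls, and its part here was not tested. Whether the effect of stabilization differed between lobes was tested directly, in a test added after the data had been seen: 0 of 841 linked genes passed at an adjusted p under 0.05 by edgeR (115 had an unadjusted p under 0.05; no other tool was run), against 23 of 14576 over all genes. Elovl7 was higher in the stabilized posterior lobe as well, at 23.2 and 14.4 TPM, beside 30.6 and 32.7 in stabilized cerebellum.

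In stabilized cerebellum ECs the linked genes called were all lower than in WT. No linked gene was higher by edgeR (0.0755% of all genes were, 23 linked genes had an unadjusted p under 0.05 and DESeq2 called 7), and 26 (3.09%) were lower, against 0.645% of all genes. Of these 26, 17 were higher in both WT lobes than in WT cerebellum, 21 were higher in the posterior lobe, and 8 were listed at 0 in both stabilized libraries. Most were low in WT cerebellum, but Hsph1, a heat shock protein gene, stood at 32.7 and 28.4 TPM there, against 11.65 and 6.04 after stabilization. Among all 94 genes called lower there, the 26 included, 36 were higher in both WT lobes and 46 in the posterior lobe. Exoc3l2 went from 0.664 and 0.779 TPM to 0 and 0 (adjusted p = 0.00111) and Ptgs1 from 0.649 and 0.890 to 0.0574 and 0 (adjusted p = 0.000739). Plekho1, with 3 linked regions, went from 6.65 and 9.14 TPM to 0 and 0 (adjusted p = 0.000121), beside 81.3 and 100.3 in WT anterior ECs. Cemip2 fell from 4.07 and 3.09 to 1.08 and 0.894 TPM (-1.79 ± 0.31, adjusted p = 0.0192) and Nrp2 from 12.1 and 10.8 to 3.25 and 4.41 (-1.58 ± 0.26, adjusted p = 0.0129). Endocrine markers fell in the same direction, from a summed 36.5 and 33.1 TPM to 1.32 and 14.1, and their part was not tested. Of the 26, 24 were linked to regions that stayed closed in stabilized cerebellum and open in the stabilized pituitary (464 genes tested), and 1 to regions open in all 6 stabilized libraries (213 genes tested). The count rose with each library left out and was 94 by DESeq2. No share of all genes stands beside these counts, so they show only that the count moved.

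Fate and RNA also went together in the WT comparison. Genes of regions open in all 6 stabilized libraries were higher in 10.8% (anterior) and 11.7% (posterior), and those of regions open only in the stabilized pituitary in 19.0% and 21.6%, with no test of the difference, since genes are not replicates.

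Letters of the AP-1 motif set the pituitary regions apart from other open regions. Within 100 bp of the summit on either side, TGAGTCA occurred on either strand in 249 of 1223 (20.4%, 95% interval 18.2 to 22.7%), against 10.1% of the 53725 other WT regions, 5.46% of regions of all 6 WT libraries, 5.45% of cerebellum alone and 8.28% of anterior lobe alone. ETS letters, AGGAAG, occurred in 624 (51.0%, 48.2 to 53.8%), against 39.7% of other regions, but in 49.2% of the regions of the anterior lobe alone. AP-1 is bound by dimers of FOS and JUN proteins, and ETS letters by the factors ERG, FLI1 and ETS1, which are known in ECs. Over 1 kb from a start, AP-1 letters were in 24.6% of 944 regions against 12.3%, and ETS letters in 57.2% against 44.8%. With GC held between 45 and 55%, AP-1 letters were in 26.7% against 13.6%.

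The TCF/LEF letters TTCAAAG or ATCAAAG, through which beta-catenin acts, were in 44 regions (3.598%) against 6.67% of the others, 2.92% of the regions of all 6 WT libraries, 4.93% of those of the anterior lobe alone and 27.8% of those of WT cerebellum alone. Over 1 kb from a start the share was 4.131%, against 8.157% of the others, and below the 5.025% of regions of all 6 WT libraries. GATA letters, AGATAA or TGATAA, did not stand out, at 11.45% against 10.7%, and the MEIS letters TGACAG were in 21.9% against 17.5%, with 23.9% in the regions of the anterior lobe alone. Matches of AP-1 were centred on the summit: in distal pituitary regions there were 9.22 and 8.90 matches per 100 regions in the 50 bp on either side of it, and 0.953 at the outermost bin. In regions of cerebellum alone the TCF/LEF letters had 9.38 and 9.43 there, and in the pituitary regions 1.06 and 0.953.

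**Figure D5:**
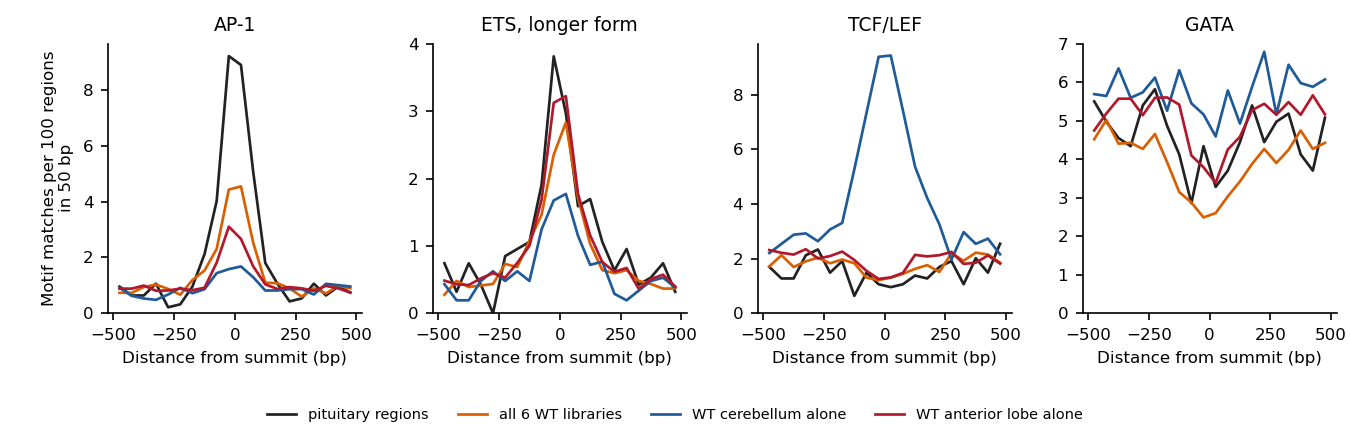
Motif matches per 100 regions in bins of 50 bp, by distance in bp from the summit, in regions over 1 kb from a start: AP-1, the ETS letters with C before and T after them (longer form), TCF/LEF and GATA, each with its own vertical axis from 0. AP-1 matches peak at the summit of the pituitary regions (black) at 9.22 per 100, and TCF/LEF matches at that of regions of WT cerebellum alone (blue) at 9.43.

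AP-1 and ETS letters met in the same window in 141 of 944 distal regions (14.9%), against 5.72% of other distal WT regions and 2.298% of those of cerebellum alone. ETS letters were in 60.8% of the distal pituitary regions with AP-1 letters, near their 57.2% in all distal pituitary regions. In other distal WT regions these shares were 46.5% and 44.8%, so the joint share mostly follows the separate ones. The share with both kinds rose with the lowest WT fold enrichment, from 9.17% at 2 to 3 through 13.5% and 16.1% to 25.6% of the 82 regions over 6. Over these bins ETS letters among regions with AP-1 letters went from 41.7% to 84%. In the Nrn1 sequence printed above the 2 kinds of letters touch, and in P3h2 they stand apart. Regions with both were open in both stabilized libraries in 99.3% in the anterior and 95.7% in the posterior lobe, and in 15.6% in the cerebellum. In stabilized cerebellum 5 of 39 distal regions with the TCF/LEF letters had a peak in both libraries (12.8%, 5.60 to 26.7%), against 21.1% of those without (18.6 to 23.9%), so the intervals overlapped. RNA of 11 AP-1 factor genes summed to 1822 and 2600 TPM in WT anterior, 1582 and 577.8 in WT posterior, 877.5 and 127.9 in WT cerebellum, 657.4 and 542.4 in stabilized anterior, 254.5 and 247.5 in stabilized posterior and 123.8 and 108.5 in stabilized cerebellum ECs. By edgeR none of the 11 was called in these 5 comparisons, with 7 (WT anterior), 1 (WT posterior against cerebellum), 6, 5 and 6 (stabilized anterior, posterior and cerebellum) at an unadjusted p under 0.05, and DESeq2 called 3, 1, 2, 2 and 4. Their part in the peaks at AP-1 letters was not tested.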

How the data were processed

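GFP-positive ECs were profiled by ATAC-seq (12 libraries) and RNA-seq, with GFP-negative cells and RiboTag bound RNA as further RNA-seq groups. Per the labels and the study's methods, the authors aligned ATAC-seq reads to mm10 with Bowtie2 2.3.2 and ran the peak caller MACS2 2.1.1.20160309 library by library. The deposited peak lists give fold enrichment (a ratio of pileup to local background) and -log10 p and q. The deposited RNA tables give estimated counts and TPM per transcript, which the authors made with Salmon 0.10.2.

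Peaks were merged over libraries after the filter and chrM was left out. Transcript values were summed to GENCODE M21 genes, and 0.124 to 0.395% of counts lay on transcripts outside it. Estimated counts were rounded and fitted with edgeR 4.0.16 (quasi-likelihood, TMM, filterByExpr) over the 12 GFP-positive libraries as 6 groups. The RiboTag and GFP-positive against GFP-negative comparisons had fits of their own. P-values were adjusted by Benjamini-Hochberg over all genes tested, protein-coding or not. Counts and shares of genes called were then taken among the protein-coding ones. The script was tested on simulated data for WT posterior pituitary against WT cerebellum (17143 genes). It recovered 0, 12, 17 and 28 of 50 genes changed 2, 4, 8 and 16-fold, with 5 false calls. Motifs were matched in 201 bp around the highest WT summit in RefSeq's GRCm38.p6 genome, which shares its coordinates with mm10.

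The regions, gene lists and rules were chosen with earlier results of these data known. Named genes were the 10 regions with the highest lowest WT fold enrichment, listed genes with a region near, genes with the most regions, and, among linked genes with at least 10 TPM, the 15 with the largest rise and 5 with the largest fall in both lobes. Genes named for their fate or their change under stabilization were chosen after their values were seen. One stabilized anterior GFP-positive RNA library has a tissue label that names the posterior lobe and was grouped by its title. Alternatives were other peak filters and overlaps, DESeq2 1.42.0, no low-count filter, a replicate block, other gene links, other motif windows and leaving out each library. Results for some genes are not reported here.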

Additional observations from a re-analysis of the deposited data

Results flagged for a closer look

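The effect of beta-catenin stabilization on Vwf, the gene of von Willebrand factor, which has a pituitary region within 100 kb in an intron of Cd9, differed between the lobes. Its estimated counts went from 20 and 16 to 994 and 1560 in the anterior lobe (0.635 and 0.538 to 39.96 and 67.1 CPM) and from 2682 and 3360 to 7396 and 12586 in the posterior (93.4 and 195.1 to 332.7 and 513.7 CPM). The effect in the posterior lobe minus that in the anterior, fitted on these counts, was -4.76 ± 0.66 SE on the log2 scale (edgeR, adjusted p = 0.0122, in a test added after the data had been seen). Stabilized libraries were higher in CPM than both WT ones in 2 of 2 anterior and 2 of 2 posterior cases. TPM, which divides each transcript's reads by its length before summing, gave smaller differences, from 0.296 and 0.137 to 2.08 and 5.70 in the anterior lobe and from 6.31 and 25.7 to 23.9 and 46.4 in the posterior, where the groups overlapped. The tissue label of stabilized anterior replicate 2 names the posterior lobe, where Vwf was higher in WT. Without that library the difference was -4.23 ± 0.56 (adjusted p = 4.11e-07), and leaving out any of the 8 pituitary libraries gave -5.26 to -3.98.

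Cd36, a fatty acid uptake gene on the same list with no pituitary region within 100 kb, also differed (-12.01 ± 1.61, edgeR, adjusted p = 0.0134). Both WT anterior libraries held 0 counts of it, so that fitted size depends on the prior count. The stabilized anterior libraries held 510 and 458, the WT posterior 1549 and 583 and the stabilized posterior 809 and 854.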

How the results depend on the processing

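The order of higher and lower calls in the stabilized posterior lobe, 8 and 18, turned to 34 and 30 with genes whose bodies lay within 100 kb and to 6 and 4 without stabilized posterior replicate 1. Under DESeq2 the linked genes called lower were 43 (anterior) and 35 (posterior against cerebellum), those in stabilized anterior ECs 10 higher and 5 lower, in stabilized posterior 27 and 58, and in stabilized cerebellum 7 and 94. Without the low-count filter, posterior against cerebellum gave 30 lower, stabilized anterior 14 higher and 5 lower, stabilized posterior 27 and 61, and stabilized cerebellum 11 and 95. With genes whose bodies lay within 100 kb, the counts were 85 and 54 lower in the WT lobes, 14 higher and 1 lower in stabilized anterior, 433 and 438 in choroid plexus, and 361 and 418 higher in GFP-positive cells. That set is larger, with 3302 genes against 928 linked genes, so its counts are not on the scale of those above. All counts in this section stand without the share of all genes and show only how the calls moved. Share of regions kept rose to 98.13% (anterior) at a fold enrichment over 4, and to 97.89% and 92.25% (anterior, posterior) with 200 bp shared. The AP-1 difference of 10.28 points was 13.04 at GC 45 to 55%, and the TCF/LEF difference of -3.07 was -5.23 in a wider window and -4.56 at that GC. The cause of these shifts was not tested.

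Leaving out 1 library gave 1264 to 1927 regions and kept shares of 93.12 to 97.87% (anterior), 78.26 to 94.6% (posterior) and 20.91 to 35.5% (cerebellum). Calls ran from 107 to 125 higher and 18 to 28 lower in the anterior lobe, and 110 to 155 and 17 to 33 in the posterior, with 33 without WT posterior replicate 1. They ran from 5 to 9 and 0 to 3 in stabilized anterior, 6 to 25 and 4 to 57 in stabilized posterior, 1 to 5 and 34 to 79 in stabilized cerebellum, 125 to 152 and 131 to 171 in choroid plexus, and 168 to 205 and 200 to 238 in GFP-positive cells. Where 1 library was left in a group, it was assumed to vary like the others. With a replicate block the stabilized anterior lobe had 1 gene lower. The block moved no other count by over 1.5 times, and same-numbered samples did not deviate together (correlations -0.0174 to 0.0301 over 15 pairs of groups). The short posterior peak lists and 2 libraries per group limit what could be found.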
